A study of Homo sapiens with 6 samples.

Results

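The epithelial protease inhibitors described here are 10 genes of protease inhibitor families that are expressed in squamous epithelium: SLPI, PI3, SERPINB2, SERPINB3, SERPINB4, SERPINB5, SERPINB13, SPINK5, CSTA and CSTB. They were taken by gene symbol from a table of 58884 genes, in which each of these symbols had 1 entry. RNA was sequenced from KYSE450, an esophageal squamous cell carcinoma (ESCC) line with wild-type NRF2, and from KEAP1null-KYSE450, a line made from it by CRISPR-Cas9 editing of KEAP1. KEAP1 marks the transcription factor NRF2 for degradation, and the comparison asks what changes in cells where NRF2 is active. Both lines were cultured in RPMI1640 with 10% fetal bovine serum and received no treatment, and 3 libraries were made of each. KEAP1null-KYSE450 is monoclonal and so stands for 1 clone. Effects of the edit and any other difference between this clone and its parental line cannot be told apart.

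Protease inhibitors of stratified epithelium fall into a few families with different targets. SLPI and PI3 (elafin) are small secreted proteins with a WAP domain that inhibit serine proteases such as neutrophil elastase. The clade B serpins are mostly intracellular proteins that trap a serine or cysteine protease, although SERPINB5 (maspin) is regarded as a serpin that does not inhibit proteases. SPINK5 encodes LEKTI, a secreted Kazal-type inhibitor that restrains kallikreins in the outer epidermis, and CSTA and CSTB encode cystatins A and B, cytosolic inhibitors of papain-like cathepsins and, for cystatin A, a component of the cornified envelope.

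Values are normalized counts, that is, reads per gene divided by 1 factor per library, and 3 reads, taken as the floor of detection, were worth between 2.77 and 3.21 normalized counts. The floor covers counting error only. The libraries summed to between 54829313 and 57380170 normalized counts. Nothing in the labels says that the libraries came from separate cultures, so p-values measure the spread between these libraries, which may be technical. As a check of the labels, KEAP1 mRNA stood at 5760, 5226 and 5146 normalized counts in KYSE450 and at 5737, 4906 and 5317 in KEAP1null-KYSE450. The ranges of the lines overlapped (log2 fold change -0.017, standard error 0.096, limma with Benjamini-Hochberg adjusted p = 0.90), and the level of this mRNA does not show whether it carries an edit. The sign turned under 4 other settings. Of 9 genes listed to check NRF2 activity, 7 were higher and 0 lower by the rule for a call given below, among them GCLC, NQO1, AKR1B10 and OSGIN1. NFE2L2, the gene of NRF2, was lower by less than a call needs (limma with Benjamini-Hochberg adjusted p = 6.3e-04, but 0.058 in edgeR).

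The cells carried squamous markers. All 10 genes of the squamous list were tested, and their normalized counts summed to 522424, 442552 and 375396 in KYSE450 and 968132, 839143 and 794691 in KEAP1null-KYSE450, with KRT5 the most abundant. Of the 10, 2 were called higher (KRT5 and KRT15) and 3 lower (KRT14, KRT6A and PKP1). By adjusted p alone 3 were higher and 6 lower, and the median log2 fold change was -0.50, opposite in sign to the change in the sums. KRT5 missed the fold change cutoff after quantile normalization (log2 fold change 0.87). Leukocytes and neutrophils are a source of the proteases that SLPI and PI3 inhibit. The list of leukocyte and neutrophil genes leaves out PRTN3 and CD86, described below. PRTN3 averaged 28.5 normalized counts in KYSE450 and 5.52 in KEAP1null-KYSE450, and CD86 averaged 9.12 and 66.5. The genes on the list left almost no signal. The 8 genes of that list summed to 2.14, 10.1 and 1.86 normalized counts in KYSE450 and 1.85, 5.10 and 2.02 in KEAP1null-KYSE450, none was tested, PTPRC and CD68 had the highest means (1.69 and 1.67 over the 6 libraries, near the floor), and ELANE, MPO, MS4A1 and FCGR3B were at 0 in all 6 libraries. The 4 endothelial genes summed to 59.9, 74.8 and 65.3 in KYSE450 and 48.0, 60.1 and 70.6 in KEAP1null-KYSE450, with VWF the most abundant, PECAM1 at 0 throughout and CDH5 called lower, although its mean reached 10 only through KYSE450 and no KEAP1null-KYSE450 library exceeded the floor. The 7 fibroblast genes summed to 1225, 935 and 818 in KYSE450 and 758, 788 and 730 in KEAP1null-KYSE450. Of the 7, 2 were tested and 0 called. COL1A1 was the most abundant and was lower by less than a call needs (log2 fold change -0.85, limma with Benjamini-Hochberg adjusted p = 7.4e-04). VIM had a log2 fold change of 0.43 (limma with Benjamini-Hochberg adjusted p = 0.12), and between 0.21 and 0.67 with a single library left out. It was 0.67 without the first KYSE450 library (limma with Benjamini-Hochberg adjusted p = 0.011). The adjusted p of VIM was at most 0.43 in the settings that tested against no change. DCN and COL1A2 did not exceed the floor in any library. LUM was above it in the 3 KYSE450 libraries and at 0 in the 3 KEAP1null-KYSE450 libraries, and PDGFRB averaged 0.337 and 6.01 normalized counts. What these genes had to do with the results below was not tested.

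Among the protease inhibitors, SLPI was higher in KEAP1null-KYSE450 and SERPINB13 was lower, CSTA and CSTB were higher by a smaller step, SERPINB5 was slightly higher, and SPINK5 showed no difference beyond the spread between libraries. PI3, SERPINB3 and SERPINB4 lay near the floor, and SERPINB2 was low. With a mean of at least 10 required over the 6 libraries, 6 of the 10 members were tested, each with a mean above 10 in both lines, and 4 were not. A gene was called where its limma p, adjusted by Benjamini-Hochberg, was under 0.05 and its log2 fold change was 1 or more in either direction. By this rule 1 of the 6 members was called higher, as were 12.2% of the 16701 genes tested, and 1 was called lower, as were 5.98% of all genes. By adjusted p alone 4 members were higher, against 24.3% of all genes, and 1 was lower, against 25.5%. SERPINB5, counted among those higher, passed in 7 of 16 other settings that tested against no change. The libraries of the lines did not overlap for 4 members with KEAP1null-KYSE450 higher (28.4% of all genes) and for 1 with it lower (29.3%). The median log2 fold change of the 6 was 0.44 and that of all genes 0.0041. Genes called higher made up 67.2% of all called genes, and 51.8% after quantile normalization.

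**Figure D1:**
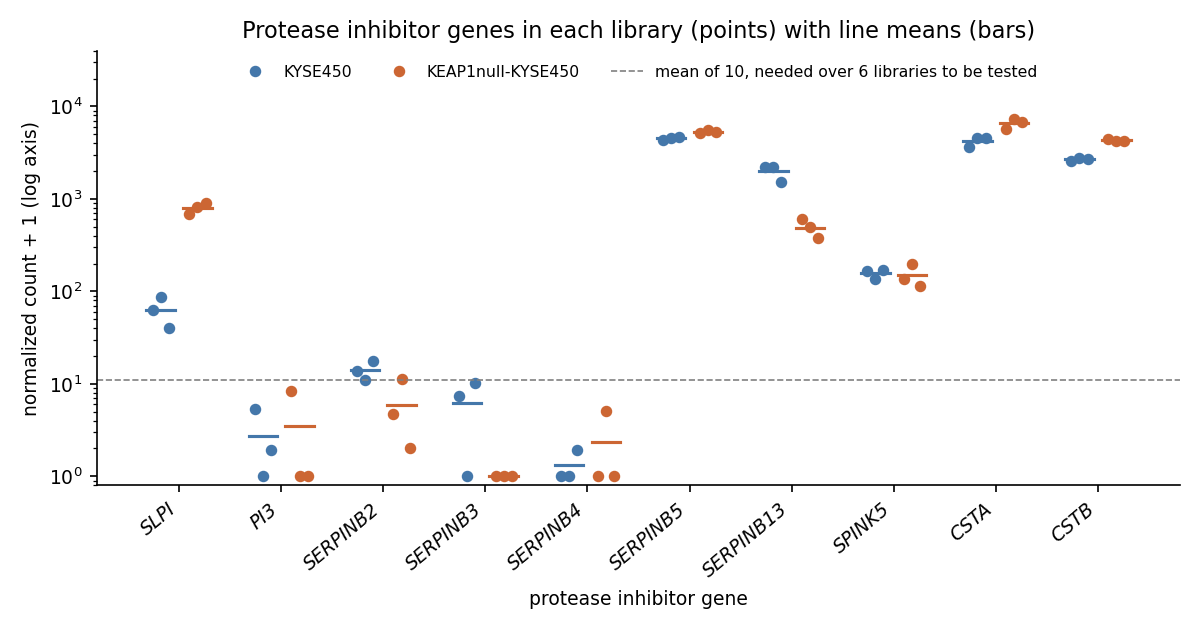
Normalized count plus 1, on a log axis, of the 10 protease inhibitor genes in 3 KYSE450 and 3 KEAP1null-KYSE450 libraries; points are libraries, bars are line means, and the dashed line is the mean of 10 needed for a test. SLPI lies between 39.2 and 85.9 in KYSE450 and between 687 and 902 in KEAP1null-KYSE450, SERPINB13 is lower in KEAP1null-KYSE450, and the means over all libraries of PI3, SERPINB2, SERPINB3 and SERPINB4 lie under 10.

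SLPI, the secreted inhibitor of neutrophil elastase and cathepsin G, was read at 62.0, 85.9 and 39.2 normalized counts in the KYSE450 libraries and at 687, 815 and 902 in the KEAP1null-KYSE450 libraries. Every KEAP1null-KYSE450 library was high, and the lowest of them exceeded the highest KYSE450 library 7.99-fold. The means were 62.4 ± 23.4 and 801 ± 108 (SD, n = 3 each), a ratio of 12.8, and the log2 fold change was 3.72 with a standard error of 0.25 and a 95% interval from 3.18 to 4.26. Of all tested genes, 98.8% had a lower log2 fold change. The adjusted p was 1.4e-07 (limma, Benjamini-Hochberg), and the call held under all 17 other settings, in which the log2 fold change lay between 3.43 and 3.99. In bulk RNA, a larger share of cells that express a gene and more of its RNA per cell cannot be told apart. The gene (ENSG00000124107; hg38 chr20:45252239-45254564, minus strand) has 596 bases of exons.

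PI3 lies in the same WAP-gene cluster as SLPI, on the plus strand at chr20:45174902-45176544, and encodes elafin, another elastase inhibitor. It was read at 4.28, 0 and 0.932 normalized counts in KYSE450 and at 7.38, 0 and 0 in KEAP1null-KYSE450. Only 1 library of each line exceeded the floor, so a small difference in PI3 could not be resolved at this level. No KEAP1null-KYSE450 library came near the values of SLPI in that line. Of 15 other genes of the WAP list, 12 were at 0 in all 6 libraries and 2 were tested, WFDC2 and WFDC3. WFDC2, whose protein is known as HE4, was read at 15.0, 16.2 and 13.1 normalized counts in KYSE450 and at 60.0, 45.9 and 51.5 in KEAP1null-KYSE450. All 3 KEAP1null-KYSE450 libraries were above the KYSE450 range (log2 fold change 1.76, standard error 0.35, limma with Benjamini-Hochberg adjusted p = 0.0012). WFDC3 was also called higher (2.67), but its mean reached 10 only through KEAP1null-KYSE450, where it spread from 16.3 to 50.4.

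SERPINB13 encodes headpin, a serpin of stratified epithelium that inhibits cysteine cathepsins. The gene (ENSG00000197641; chr18:63586989-63604639, plus strand) was read at 2210, 2208 and 1530 normalized counts in KYSE450 and at 599, 494 and 372 in KEAP1null-KYSE450. All KEAP1null-KYSE450 libraries were low, the lowest KYSE450 library exceeding the highest of them 2.55-fold. The means were 1982 ± 392 and 489 ± 113 (SD, n = 3 each), a level 4.06-fold lower in KEAP1null-KYSE450. The log2 fold change was -2.02, with a standard error of 0.18, a 95% interval from -2.42 to -1.63 and a limma adjusted p of 2.3e-06 (Benjamini-Hochberg). Under 17 other settings it lay between -2.20 and -1.74 and was called in each, and 2.11% of all tested genes had a lower value.

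SERPINB5 (maspin) lies upstream of SERPINB13 in the chromosome 18 serpin cluster and had the most reads of the serpin members. The gene (ENSG00000206075; chr18:63476958-63505085, plus strand) was read at 4355, 4593 and 4638 normalized counts in KYSE450 and at 5107, 5584 and 5319 in KEAP1null-KYSE450. The lines did not overlap, but the step was small: the log2 fold change was 0.24 (standard error 0.088, 95% interval 0.045 to 0.43, limma with Benjamini-Hochberg adjusted p = 0.041). The adjusted p was under 0.05 in 7 of 16 other settings that tested against no change, and ranged from 0.0038 to 0.25 over them. With a single library left out it was under 0.05 without the first KEAP1null-KYSE450 library and above it without any other, up to 0.16. The promoters of SERPINB13 and SERPINB5 are shown because these genes of the same cluster and strand were the serpin members with enough reads to test. They come from RefSeq on GRCh38.p14, plus strand, and hold 300 bases around the RefSeq start, at chr18:63587093-63587392 and chr18:63476708-63477007. The RefSeq start is that of the gencode gene for SERPINB5 and lies 354 bases inside it for SERPINB13. Capitals mark the letters TGANTCA, a loose form of the AP-1 site that leaves the central base free.
SERPINB13: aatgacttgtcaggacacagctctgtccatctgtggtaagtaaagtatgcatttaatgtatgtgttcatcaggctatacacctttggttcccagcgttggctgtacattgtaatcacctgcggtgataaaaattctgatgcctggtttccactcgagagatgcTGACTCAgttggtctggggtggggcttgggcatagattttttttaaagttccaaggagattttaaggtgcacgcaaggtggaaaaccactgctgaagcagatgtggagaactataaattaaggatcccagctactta
SERPINB5: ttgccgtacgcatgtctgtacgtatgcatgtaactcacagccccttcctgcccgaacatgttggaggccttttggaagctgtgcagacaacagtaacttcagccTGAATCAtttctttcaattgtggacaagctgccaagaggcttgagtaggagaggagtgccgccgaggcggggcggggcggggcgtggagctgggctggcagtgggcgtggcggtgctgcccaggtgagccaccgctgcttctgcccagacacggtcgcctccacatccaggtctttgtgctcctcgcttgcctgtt

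Of the 10 members, 6 had an entry in the promoter table: SERPINB2, SERPINB3, SERPINB4, SERPINB5, SERPINB13 and SPINK5. SLPI, PI3, CSTA and CSTB had none and were not searched. The counts below therefore say nothing about SLPI, the member called higher, or about the 2 cystatins. Both strands were searched for TGACNNNGC, the core of the antioxidant response element that NRF2 binds, and 0 of the 6 promoters held it, against 13.3% of 35116 promoters of 300 bases and 2 of 8 genes of the NRF2 check. NQO1, GCLC and OSGIN1, all called higher, were among the check genes without a match in these bases. The AP-1 site itself, TGACTCA on either strand, was in 1 of the 6 promoters (SERPINB13) and in 4.95% of all. Its loose form TGANTCA, which reads the same on both strands apart from its central base, was in 3 of the 6 and in 7.71% of all. Both can overlap the first motif, and both were chosen after the values had been seen. SERPINB13 held TGACTCA from base -87 to -81 counted from the RefSeq start, SERPINB5 held TGAATCA from -146 to -140, and SERPINB2 held TGAATCA from -102 to -96. The RefSeq start lies 16013 bases inside the gencode gene for SERPINB2 and 38297 bases inside it for SPINK5, and so these promoters belong to a start other than the outermost. A match describes letters in these 300 bases and not binding.

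SERPINB3 and SERPINB4, the squamous cell carcinoma antigens, are neighbouring near-copies on the minus strand of chromosome 18; SERPINB3 chiefly inhibits cathepsins and SERPINB4 chymotrypsin-like serine proteases. SERPINB3 was read at 6.42, 0 and 9.32 normalized counts in KYSE450 and at 0 in all 3 KEAP1null-KYSE450 libraries. SERPINB4 was at 0, 0 and 0.932 in KYSE450 and at 0, 4.08 and 0 in KEAP1null-KYSE450. SERPINB3 thus exceeded the floor in 2 KYSE450 libraries and SERPINB4 in 1 KEAP1null-KYSE450 library. Without the filter on low values, the limma adjusted p (Benjamini-Hochberg) was 0.061 for SERPINB3 and 0.64 for SERPINB4, so neither line was shown to be higher. Their main transcripts, 1707 bases each, were identical at 95.7% of aligned bases. The longest run they shared was 129 bases, shorter than a read of 150 bases, but reads aligned with mismatches could still have been split between them, and these low values are uncertain for that reason. Their promoters, printed because they show how close the copies are, differed at 4 of 300 bases (98.7% identical), which are in capitals. Both are read on the minus strand of GRCh38.p14 (RefSeq), SERPINB3 at chr18:63661844-63662143 and SERPINB4 at chr18:63644207-63644506.
SERPINB3: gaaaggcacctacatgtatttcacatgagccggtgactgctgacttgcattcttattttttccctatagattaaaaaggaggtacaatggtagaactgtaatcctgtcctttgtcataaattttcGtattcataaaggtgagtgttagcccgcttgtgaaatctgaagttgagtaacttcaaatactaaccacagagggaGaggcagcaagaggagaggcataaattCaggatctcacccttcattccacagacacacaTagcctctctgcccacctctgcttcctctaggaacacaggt
SERPINB4: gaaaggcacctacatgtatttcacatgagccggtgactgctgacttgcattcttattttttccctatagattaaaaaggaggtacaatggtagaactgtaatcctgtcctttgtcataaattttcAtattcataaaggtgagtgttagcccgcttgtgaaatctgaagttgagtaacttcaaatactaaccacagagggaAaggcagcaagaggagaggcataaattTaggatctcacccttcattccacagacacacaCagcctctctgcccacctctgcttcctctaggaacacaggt

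SERPINB2, or PAI-2, inhibits urokinase and tissue plasminogen activator. It was read at 12.8, 10.1 and 16.8 normalized counts in KYSE450 and at 3.69, 10.2 and 1.01 in KEAP1null-KYSE450. The second KEAP1null-KYSE450 library lay within the KYSE450 range and the others lay under it. The mean over 6 libraries was 9.10, just short of the 10 required, and without the filter the log2 fold change was -1.57 with a limma adjusted p of 0.13 (Benjamini-Hochberg). Of the windows of 150 bases along its main transcript, 22.8% also occur in transcripts of an overlapping gene of the annotation on the same strand that the table does not list.

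In the serpin cluster 493 kb lie between the starts of SERPINB5 and SERPINB8. SERPINB12 starts 44.6 kb before SERPINB13 and 65.4 kb after SERPINB5, and is the nearest tested gene on that side of SERPINB13. It was read at 2.14, 6.06 and 1.86 normalized counts in KYSE450 and at 24.9, 14.3 and 18.2 in KEAP1null-KYSE450. All KEAP1null-KYSE450 libraries were higher (log2 fold change 2.30, standard error 0.63, limma with Benjamini-Hochberg adjusted p = 0.0093), although its mean reached 10 only through that line and the limma adjusted p was 0.066 after quantile normalization and between 0.0066 and 0.067 over all other settings. SERPINB8, a furin inhibitor at the far end of the cluster, was read at 232, 200 and 227 normalized counts in KYSE450 and at 98.7, 119 and 79.7 in KEAP1null-KYSE450. All KEAP1null-KYSE450 libraries were lower, with a log2 fold change of -1.16 (standard error 0.21, limma with Benjamini-Hochberg adjusted p = 5.4e-04). The call was made in 16 of 17 other settings and not in the test against a fold change of 1.5 (adjusted p = 0.058, the highest of the 17). SERPINB7, SERPINB10 and SERPINB11 were at most 6.05 normalized counts in every library.

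**Figure D2:**
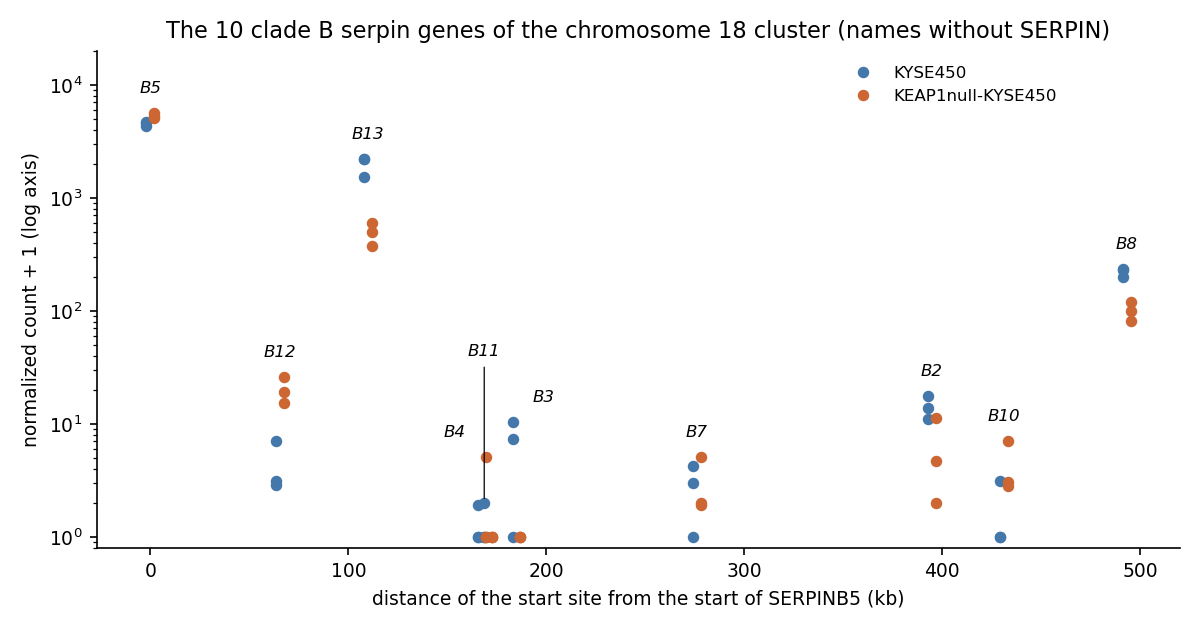
Normalized count plus 1, on a log axis, of the 10 clade B serpin genes of the chromosome 18 cluster in each library, against the distance of each start site from that of SERPINB5 in kilobases; the lines are set slightly apart for legibility. SERPINB13 and SERPINB8 are lower in KEAP1null-KYSE450. SERPINB12 is higher, with a mean under 10 in KYSE450, and SERPINB5 differs by a log2 fold change of 0.24.

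Of the 8 clade B serpins outside the members, 4 were tested, 1 was called higher (SERPINB12) and 1 lower (SERPINB8). Their median log2 fold change was -0.080, and -0.30 over the 3 with a mean of at least 10 in both lines. SERPINB12 is not among these 3, because its mean reached 10 only through KEAP1null-KYSE450. SERPINB6, a cytosolic serpin that inhibits trypsin-like proteases and was the most abundant of the 8, averaged 4456 ± 206 and 4914 ± 198 normalized counts (SD, n = 3 each), with a limma adjusted p of 0.21 (Benjamini-Hochberg) that was 0.018 after quantile normalization and at most 0.46 in the settings that tested against no change. SERPINB1, an inhibitor of neutrophil elastase, averaged 2429 ± 50.3 and 1972 ± 66.3 (SD, n = 3 each). Its libraries did not overlap, with a log2 fold change of -0.30 and a limma adjusted p of 0.016 (Benjamini-Hochberg). Over 16 other settings that tested against no change it ranged from 0.012 to 0.26 and was under 0.05 in 11. It was 0.063 without the second KYSE450 library and 0.063 without the third KEAP1null-KYSE450 library.

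SPINK5 was read at 167, 136 and 170 normalized counts in KYSE450 and at 136, 197 and 113 in KEAP1null-KYSE450. The lines overlapped, with the highest and the lowest value both in KEAP1null-KYSE450. The log2 fold change was -0.12 (standard error 0.23, limma with Benjamini-Hochberg adjusted p = 0.69), and its 95% interval ran from -0.61 to 0.38, which leaves out a change of 1 on the log2 scale. Over 17 other settings the log2 fold change lay between -0.40, after quantile normalization, and 0.058, without the third KEAP1null-KYSE450 library. It was -0.34 without the second KEAP1null-KYSE450 library, -0.22 without the second KYSE450 library and 0.015 in edgeR. SPINK5 (ENSG00000133710; chr5:148025683-148137382, plus strand) is overlapped on the other strand by AC091948.1 (FBXO38-DT), which averaged 10.0 normalized counts over the 6 libraries. Whether reads were assigned by strand is not given, so some reads could belong to the other gene. Among 10 other Kazal-type genes 2 were tested. The most abundant, RECK, a membrane-anchored inhibitor of metalloproteinases, averaged 505 and 491 normalized counts, and the sign of its log2 fold change (-0.047) turned in 3 other settings. SPINK2 was called higher (log2 fold change 1.80, limma with Benjamini-Hochberg adjusted p = 0.041), with 2.14, 12.1 and 2.80 normalized counts in KYSE450 and 13.8, 15.3 and 26.2 in KEAP1null-KYSE450. Its adjusted p was under 0.05 in 6 of 15 other settings that tested against no change and ranged from 0.012 to 0.21. With a single library left out it was under 0.05 without the second KYSE450 library and between 0.059 and 0.16 without any other, and its mean reached 10 only through KEAP1null-KYSE450.

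CSTA and CSTB, the stefin-type cystatins, were both higher in KEAP1null-KYSE450. CSTA (ENSG00000121552; chr3:122325248-122341969, plus strand) was read at 3631, 4594 and 4504 normalized counts in KYSE450 and at 5742, 7367 and 6779 in KEAP1null-KYSE450. CSTB (ENSG00000160213; chr21:43772511-43776330, minus strand) was read at 2570, 2797 and 2683 normalized counts in KYSE450 and at 4450, 4207 and 4213 in KEAP1null-KYSE450. For both genes all KEAP1null-KYSE450 libraries were above all KYSE450 libraries, by a ratio of means of 1.56 for CSTA and 1.60 for CSTB. The log2 fold change of CSTA was 0.64 (standard error 0.12, 95% interval 0.38 to 0.90, limma with Benjamini-Hochberg adjusted p = 7.6e-04). That of CSTB was 0.68 (standard error 0.090, 95% interval 0.48 to 0.87, limma with Benjamini-Hochberg adjusted p = 5.8e-05). Both log2 fold changes were under 1, so neither gene was called, and both intervals also stay under 1. Each gene had an adjusted p under 0.05 in all 16 other settings that tested against no change. Of 11 other cystatins, 8 were at 0 in all libraries and 1, CST3 (cystatin C, a secreted inhibitor), was tested. CST3 averaged 1863 ± 153 and 2276 ± 101 normalized counts (SD, n = 3 each; log2 fold change 0.29, limma with Benjamini-Hochberg adjusted p = 0.029), and the adjusted p was under 0.05 in 10 of 16 other settings that tested against no change. It was 0.11 without the third KYSE450 library, 0.062 without the second and 0.11 without the third KEAP1null-KYSE450 library, and at most 0.17.

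**Figure D3:**
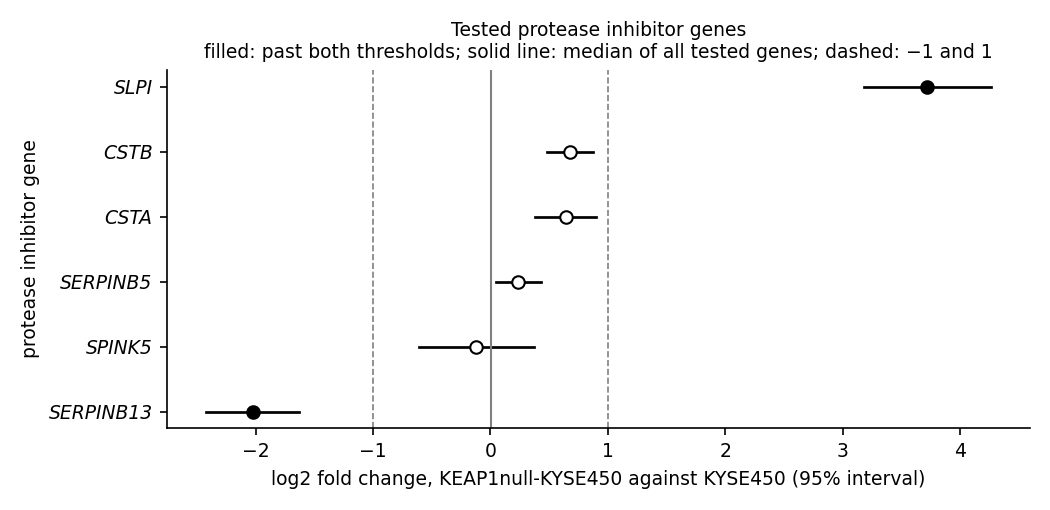
Log2 fold change of the 6 tested protease inhibitor genes, KEAP1null-KYSE450 against KYSE450, with 95% intervals from limma; filled points passed both thresholds, the solid line is the median of all tested genes (0.0041) and the dashed lines mark -1 and 1. SLPI lies at 3.72, CSTB at 0.68, CSTA at 0.64, SERPINB5 at 0.24, SPINK5 at -0.12 and SERPINB13 at -2.02.

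Levels were ordered between genes as normalized counts per kilobase of merged gencode exons. The authors' methods name RefSeq for counting although the table carries Ensembl identifiers, so these lengths may not be the ones that were counted. In KYSE450 the order was CSTA (3106), SERPINB5 (1210), CSTB (702), SERPINB13 (437), SLPI (105) and SPINK5 (33.0), and no neighbours in it overlapped between libraries. In KEAP1null-KYSE450 CSTA (4853 per kilobase) again came first, followed by SERPINB5 (1426), SLPI (1344), CSTB (1123), SERPINB13 (108) and SPINK5 (31.1). There SLPI, from 1152 to 1513 per kilobase, overlapped both SERPINB5 (1365 to 1492) and CSTB (1101 to 1165). SLPI thus stood below SERPINB13 in KYSE450 and above it in KEAP1null-KYSE450. The places of SLPI, SERPINB5 and CSTB depend on the length used. The merged exons of CSTB are 6.50 times as long as its main transcript of 588 bases. Per kilobase of the main transcript, a length chosen after the values had been seen, CSTB came second in both lines, at 4564 in KYSE450 and 7296 in KEAP1null-KYSE450, and SLPI in KEAP1null-KYSE450 lay below SERPINB5 (1975 to 2159) and CSTB (7155 to 7569) without overlap.

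The nearest tested genes around the members lay in either direction. SDC4, a syndecan and the nearest tested gene on one side of SLPI and PI3, was called lower, from a mean of 2164 to 654 normalized counts (log2 fold change -1.74). On the other side STK4-AS1 had a log2 fold change of 1.13 and a limma adjusted p of 0.053 (Benjamini-Hochberg). Its value was 0.63 without the first KYSE450 library, and it was called without the third KYSE450 library (1.53) and without the first KEAP1null-KYSE450 library (1.37). Over all tested genes, 12.2% were called higher and 5.98% lower. Within 1 Mb of SLPI, 5 of 32 tested genes were called higher and 2 lower, with a median log2 fold change of -0.0060. CSTA had 5 of 21 called higher and 0 lower, with a median of 0.085. CD86, an immune costimulatory gene on one side of CSTA, averaged 9.12 and 66.5 normalized counts and was called higher (2.86), its mean reaching 10 only through KEAP1null-KYSE450, while CCDC58 on the other side had a value of -0.38 that passed an adjusted p of 0.05 in 5 of 16 other settings. CSTB, itself higher, had 0 of 21 called higher and 2 lower, and its nearest genes PDXK and RRP1 had log2 fold changes of -0.47 and -0.66. Around SPINK5, which showed no difference, 3 of 5 tested genes were called lower and the median was -2.55. DPYSL3, the nearest on one side, went from a mean of 8403 to 1044 normalized counts (-2.99), and AC091948.1, whose start lies on the other side, had 0.59 (limma adjusted p = 0.45, Benjamini-Hochberg). Its value was -0.23 after quantile normalization, 0.019 in edgeR, and between 0.36 (without the second KYSE450 library) and 1.01 (without the third) with a single library left out. Next to SERPINB5, VPS4B had a log2 fold change of 0.17.

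The proteases that these inhibitors act on were described from lists of their own. Of 15 genes of serine proteases and their receptor, 6 were tested, 0 were called higher and 3 lower, with a median log2 fold change of -1.70, and -0.98 over the 5 with a mean of at least 10 in both lines. ELANE, CTSG and CMA1, the genes of the leukocyte proteases that SLPI inhibits, were at 0 in all libraries, as were PLG and KLK8. The other kallikreins of the list, KLK5, KLK7, KLK13 and KLK14, had means too low to be tested. The genes called lower were PLAT, PLAUR and PRTN3. PLAT, tissue plasminogen activator and a target of SERPINB2, was read at 286, 259 and 185 normalized counts in KYSE450 and at 36.0, 21.4 and 28.2 in KEAP1null-KYSE450. PLAUR, the urokinase receptor, was read at 280, 260 and 224 in KYSE450 and at 37.8, 45.9 and 30.3 in KEAP1null-KYSE450. For both genes every KEAP1null-KYSE450 library was low, with log2 fold changes of -3.05 for PLAT (standard error 0.27) and -2.73 for PLAUR (standard error 0.23) and limma adjusted p of 2.1e-06 and 1.5e-06 (Benjamini-Hochberg). PLAU, urokinase itself, had the highest mean of the list over both lines together, though not in KYSE450 alone, and was read at 1554, 1420 and 1252 normalized counts in KYSE450 and at 2492, 1928 and 1870 in KEAP1null-KYSE450. Its libraries were higher without overlap, by less than the threshold (log2 fold change 0.57, limma with Benjamini-Hochberg adjusted p = 0.0030). In KYSE450 the highest mean was that of ST14, the gene of matriptase, at 1684 normalized counts against 856 in KEAP1null-KYSE450. ST14 was lower without overlap, also by less than the threshold (log2 fold change -0.98, limma with Benjamini-Hochberg adjusted p = 1.9e-04). The remaining call was PRTN3, proteinase 3, which averaged 28.5 and 5.52 normalized counts (log2 fold change -2.41, limma with Benjamini-Hochberg adjusted p = 0.0085). That call was lost in edgeR (-1.52), in DESeq2 (-1.57) and in the test against a fold change of 1.5, with adjusted p of 0.10, 0.20 and 0.059 (from 0.0027 to 0.20 over all settings), and the mean reached 10 only through KYSE450.

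Cysteine cathepsins and legumain were better expressed. Their list holds targets of cystatins and of SERPINB13 but was not limited to genes that the members inhibit. Of 12 genes 11 were tested, 2 were called higher and 2 lower, and the median log2 fold change was -0.49. By adjusted p alone 3 were higher and 6 lower, against 24.3% and 25.5% of all genes. CTSV, cathepsin V of stratified epithelium, was read at 2459, 2272 and 2482 normalized counts in KYSE450 and at 1010, 773 and 707 in KEAP1null-KYSE450. All its KEAP1null-KYSE450 libraries were lower (log2 fold change -1.55, standard error 0.13, limma with Benjamini-Hochberg adjusted p = 1.4e-06), and CTSS was called lower too (-1.07), in 15 of 17 other settings. CTSF rose from 170 ± 38.3 to 535 ± 3.24 normalized counts (SD, n = 3 each; log2 fold change 1.67, limma with Benjamini-Hochberg adjusted p = 7.9e-06), and CTSO was called higher (1.11). The call of CTSO was made in 13 of 17 other settings and not after quantile normalization (0.89), without the third KYSE450 library (0.78), without the first KEAP1null-KYSE450 library (0.995) or in the test against a fold change of 1.5. CTSC, which activates granule serine proteases, had the highest mean over both lines together, although CTSB was higher in KEAP1null-KYSE450, and its log2 fold change was -0.51. The cathepsins named most often as targets of cystatins A and B did not share a direction. CTSB averaged 7010 ± 783 and 9521 ± 1863 normalized counts (0.43), CTSL 2684 ± 166 and 2366 ± 443 (-0.20) and CTSH 2038 ± 50.3 and 1280 ± 44.2 (-0.67), with SD and n = 3 each. The limma adjusted p (Benjamini-Hochberg) was 0.017 for CTSB, 0.21 for CTSL and 1.1e-04 for CTSH. For CTSB it was 0.062 without the third KYSE450 library (log2 fold change 0.34) and 0.062 without the first KEAP1null-KYSE450 library (log2 fold change 0.28). It was at most 0.088 for CTSB in the settings that tested against no change. For CTSL it was 0.019 without the first KEAP1null-KYSE450 library, where the log2 fold change was -0.35, and at most 0.73 in the settings that tested against no change.

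**Figure D4:**
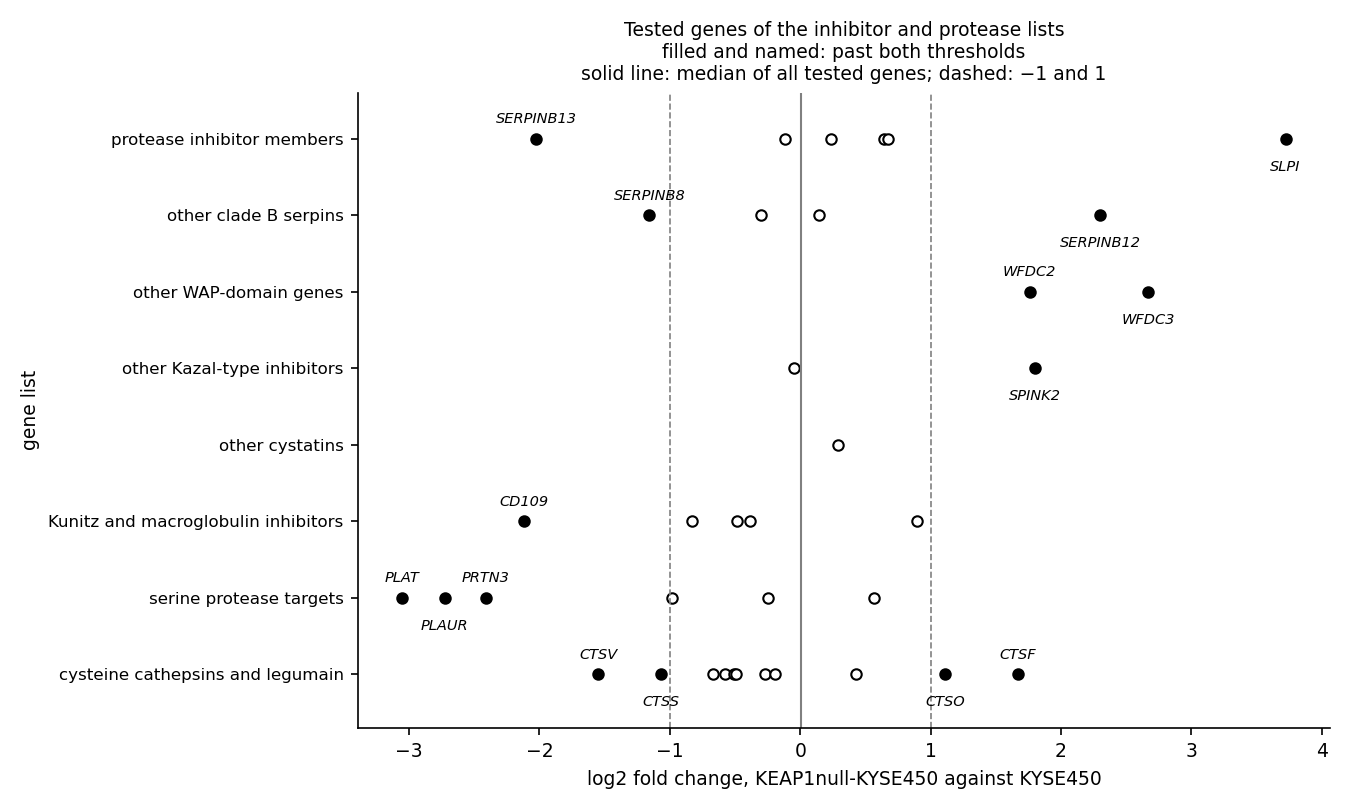
Log2 fold change, KEAP1null-KYSE450 against KYSE450, of each tested gene in the lists of inhibitors and proteases; points are genes, those passing both thresholds are filled and named, the solid line is the median of all tested genes (0.0041) and the dashed lines mark -1 and 1. SLPI is the rightmost point (3.72) and PLAT the leftmost (-3.05).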

How the data were processed

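Total RNA of 3 KYSE450 and 3 KEAP1null-KYSE450 libraries was sequenced. The authors filtered the reads, aligned them to hg38 with STAR (2.6.90c) and counted them per gene with featureCounts (1.5.1); the submitters' processing notes also name FastQC (0.11.5) and cutadapt (1.12). The deposited values are normalized counts, a signal equal to reads divided by 1 factor per library; how the factors were set is not given in the sources used here. Columns carry no replicate number and are numbered in table order.

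Divided by the value of 1 read, 100% of the values were whole (within 0.1) in all 6 libraries. In 2 of them that step (1.01 in each) was taken as too close to 1. Reads were recovered for the other 4, between 53027359 and 61543442 per library. edgeR (4.0.16, quasi-likelihood, TMM) and DESeq2 (1.42.0) on these reads called 2698 and 2500 genes. Libraries of a line differed by more than counting noise, so none was counted as a duplicate.

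The main test was limma (3.58.1, R 4.3.3; lmFit, eBayes with trend) on log2(normalized count + 1) for 16701 genes averaging 10 or more, with Benjamini-Hochberg adjustment over all of them; fold changes on this scale understate the change of low genes. Thresholds were an adjusted p of 0.05 and an absolute log2 fold change of 1. The tests were also tried on simulated data, the outcome of which is not reported here. Other settings changed the pseudocount (0.1 or 10), the filter (none, or a mean of 100), the scaling (equal totals or quantile normalization), the libraries (leaving out 1 at a time), the cutoff (no fold change cutoff, or limma's treat against a fold change of 1.5), the trend in eBayes, the tool (edgeR, DESeq2), the entries of a symbol (summed), and, chosen after seeing the data, the exon length and the AP-1 motifs. Positions, exon lengths and neighbours within 1 Mb come from gencode v44 on hg38, which holds 16630 of the tested genes, and promoters from RefSeq.

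Named genes were the 10 members; KEAP1, NFE2L2, NQO1 and GCLC; of each other list up to 2 called genes per direction whose higher line averaged 100 or more, and the most abundant gene; and the nearest tested gene on each side of a member. SERPINB1, WFDC3, SPINK2, PRTN3, ST14, CTSB, CTSL, CTSH, PKP1, VIM, CDH5, SPINT1, SPINT2, TFPI and TFPI2, and genes named as at or near 0, were added after their values were seen. The members and lists were chosen with earlier results of these data known. A further list of inhibitors is not reported here.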

Additional observations from a re-analysis of the deposited data

How the results depend on the processing

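Under 18 alternatives 1 member was called lower, and 1 was called higher except without a fold change cutoff, where a wider rule gave 4. Over all genes 2045 were called higher and 999 lower. Without a fold change cutoff 4060 were higher and 4251 lower, by the wider rule; with a mean of at least 100 required 875 were higher, from fewer genes tested; against a fold change of 1.5 1345 were higher, by the stricter rule. With 1 library left out, 1748 to 2018 genes were higher and 874 to 1094 lower. For the genes named in the text apart from ST14, whose refits are not described, refits kept direction and side of an adjusted p of 0.05, whatever the fold change cutoff, 841 times. They no longer passed it 83 times, newly passed it 7 times and changed sign 11 times. The changes of sign were in 5 genes, none past an adjusted p of 0.05 in the main limma test, and the cause was not tested. SPINK5 was 0.015 in edgeR, -0.40 after quantile normalization and -0.34 to 0.058 with 1 library left out. KEAP1 was 0.016 after rescaling to equal totals, 0.14 after quantile normalization and -0.072 to 0.040 with 1 library left out, 0.034 without the first of KYSE450. RECK was 0.050 in edgeR, 0.023 in DESeq2 and -0.14 to 0.038 with 1 library left out. VWF was -0.22 and AC091948.1 -0.23 after quantile normalization. Against a fold change of 1.5 the limma adjusted p of CSTA was 1 and that of CSTB 0.62. No paired analysis was possible because the columns carry no replicate numbers. The canonical transcript length and the AP-1 motifs were chosen after seeing the data. Depth limits PI3, SERPINB3 and SERPINB4, which lay near the floor of 3 reads, and edgeR and DESeq2 used 4 libraries.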

Other observations

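CD109, a membrane-anchored relative of the macroglobulin inhibitors that also binds TGF-beta, was among the inhibitors with the most reads. It was read at 17769, 17740 and 17005 normalized counts in KYSE450 and at 4625, 4126 and 3445 in KEAP1null-KYSE450. Every KEAP1null-KYSE450 library was low, with a log2 fold change of -2.12 (standard error 0.11, limma with Benjamini-Hochberg adjusted p = 1.2e-08) that lay between -2.21 and -1.93 under 17 other settings. Of the 8 Kunitz and macroglobulin inhibitors 5 were tested, 0 were called higher and 1, CD109, lower, and the median log2 fold change was -0.48. The matriptase inhibitors SPINT1 and SPINT2 were lower by less than the threshold (-0.83 and -0.38), as was TFPI2 (-0.48), and in 16 other settings that tested against no change the adjusted p was under 0.05 in 10 for SPINT2 and in 11 for TFPI2. TFPI, the inhibitor of the tissue factor pathway, was higher by less than the threshold (0.89). It was called higher in 4 of 17 other settings, which were edgeR (1.21), DESeq2 (1.18), without the second KYSE450 library (1.05) and without the third KEAP1null-KYSE450 library (1.01).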
